A study of Mus musculus with 2 samples.

Results

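Apoe, the gene for apolipoprotein E, was followed across all 6886 deposited cells of a single-cell RNA-seq study of mouse colon leukocytes. It is 1 gene of the 32285 in the deposited table. It was chosen by its measured UMI counts, whose level differed between cell clusters and between the libraries, so its levels are given as a description, with no test. Its level is given in each of the authors' 17 clusters, numbered 0 to 16, and in each library. In clusters 0 to 5, which hold 4902 cells, the cells with 2 or more Apoe UMIs were then set against the cells with none.

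Live cells carrying CD45, the surface protein shared by leukocytes, were sorted from the colons of 5XFAD mice and of WT littermates, all female and 9 months old. The 5XFAD line is an Alzheimer disease model whose human transgenes bear mutations found in affected families and are driven by a neuronal Thy1 promoter. Cells of 3 mice were pooled into 1 library for each genotype, so every difference between genotypes compares 2 libraries, with no replicate check and no p-value. A UMI is a tag that marks 1 captured RNA molecule. Levels are given as counts per 1000000 UMIs of the cell group (CPM), and the 95% intervals cover counting error only.

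Apolipoprotein E is a secreted protein that coats lipoprotein particles and carries cholesterol and other lipids between cells. It is taken up by lipoprotein receptors on the cell surface. Macrophages make it when they are loaded with cholesterol, through the sterol-sensing nuclear receptors LXRα and LXRβ, and in the brain it comes from astrocytes and activated microglia. Variants of the human gene are the strongest common genetic risk for late-onset Alzheimer disease. Lymphocytes are not among its best-known sources.

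Apoe is a protein-coding gene on the minus strand of mouse chromosome 7, at 19696109 to 19699188 in GRCm38 (ENSMUSG00000002985.16), the assembly that mm10 names. RefSeq gives 3 start sites for it. The 250 bases before the outermost one, chr7:19699189-19699438, are shown because Apoe is a textbook LXR target, with the nuclear receptor half-site GGTCA in capitals.
Apoe promoter, minus strand, 5′ to 3′: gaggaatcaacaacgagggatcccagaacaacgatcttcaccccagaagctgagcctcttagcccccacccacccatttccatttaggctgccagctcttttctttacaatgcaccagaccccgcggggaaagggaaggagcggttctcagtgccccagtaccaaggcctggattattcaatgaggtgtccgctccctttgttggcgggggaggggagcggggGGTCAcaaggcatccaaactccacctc
Motifs were searched on both strands from 250 bases before to 50 after each start site. The half-site has 1 match at the outermost site, 27 bases before the start, and none at the other start sites. It occurs in 40.5% of 32851 RefSeq promoter windows of the same length. The full LXR element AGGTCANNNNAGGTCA, a direct repeat spaced by 4 bases, had no match at any of the 3 start sites. Only 0.0152% of all windows hold these exact letters, so a window without them is the usual case. Variant elements, and elements farther from the start sites, were not searched. The GC box GGGCGG had no match either, against 35.7% of windows. TATAAA had 2 matches, which overlap on opposite strands, at the second start site and none at the others, against 13.6% of windows.

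The libraries held 3443 cells each, with 18604847 UMIs in 5XFAD and 17939499 in WT and medians of 5209 and 4938 UMIs per cell. They shared 3 cell barcodes. No 5XFAD cell and 106 WT cells had 2500 detected genes or more. Doublets were not called. The clusters carry numbers and no cell type names, so they were checked against marker genes. The 6 B cell markers, among them Cd79a, Cd79b, Ms4a1, Pax5 and Ebf1, summed to 4513 to 5681 CPM in clusters 0 to 7 of 5XFAD and to 4499 to 5848 CPM in those of WT. In clusters 8 to 14 and 16, where T cell, innate lymphoid cell (ILC) and NK cell markers are found, they summed to 33.3 to 81.8 CPM in 5XFAD and 81.9 to 293 CPM in WT. Cluster 6 has the highest plasma cell marker sum of the B lineage clusters, with 1070 CPM in 5XFAD and 790 CPM in WT. Cluster 15 holds macrophage and monocyte markers at a summed level of 8176 CPM in 5XFAD and 12661 CPM in WT, so it goes against the word lymphocyte. It is mixed, with epithelial markers at 4164 and 1286 CPM, stromal, endothelial and enteric glial markers at 1773 and 665 CPM, and granulocyte and mast cell markers at 10.5 and 1154 CPM.

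Most Apoe UMIs in this sort lay in the B lineage clusters, which also held most of the cells. Clusters 0 to 7 held 89.5% of the Apoe UMIs of the 5XFAD library and 79.8% of those of the WT library, and cluster 15 held 9.04% and 18.8% with 32 and 37 cells. Clusters 0 to 7 also held 2656 of the 3443 cells in 5XFAD and 2778 of 3443 in WT. Their Apoe level was 935 CPM in 5XFAD and 518 CPM in WT, beside 794 and 509 CPM over all cells. The T, ILC and NK clusters held 1.42% of Apoe UMIs in 5XFAD and 1.41% in WT. Per cell, cluster 15 was highest, and cluster 6 came next with 3130 CPM (3023 to 3240) in 5XFAD and 2419 CPM (2306 to 2535) in WT. Cluster 4 followed with 2001 CPM (1934 to 2071) in 5XFAD and 1316 CPM (1257 to 1377) in WT, then cluster 0 with 1038 CPM (1001 to 1076) and 434 CPM (411 to 457). The order of these 4 clusters was the same in both libraries, and their counting intervals did not overlap.

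**Figure D1:**
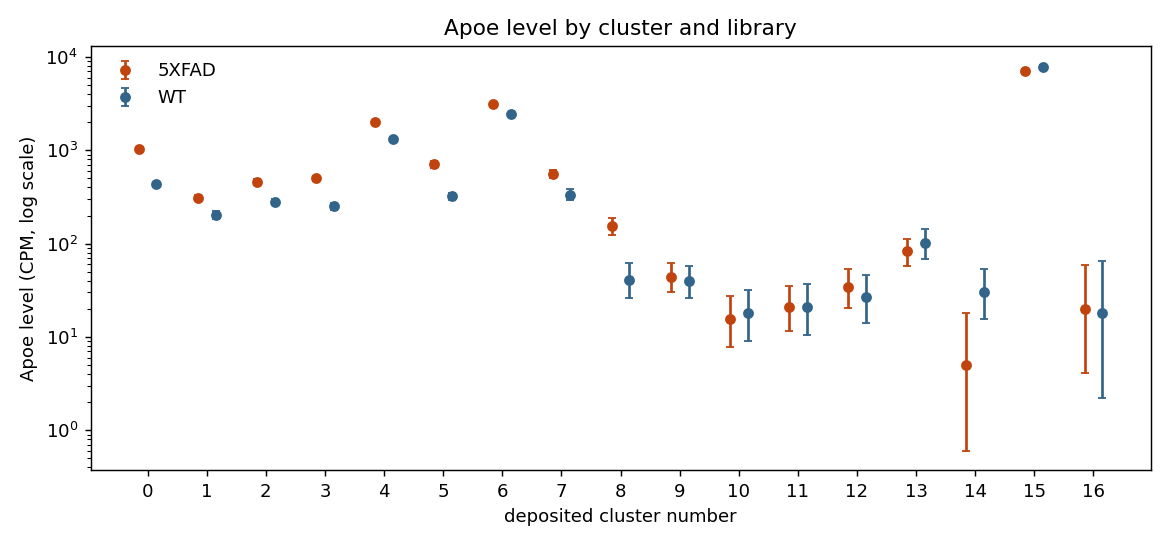
Apoe level in CPM on a log axis for each deposited cluster, with 1 point for 5XFAD and 1 for WT and 95% Poisson intervals as bars. Clusters 15, 6 and 4 stand highest in both libraries, and clusters 8 to 14 and 16 lie below every one of clusters 0 to 7.

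The other B lineage clusters were closer together. In 5XFAD, cluster 5 had 705 CPM, cluster 7 had 555 CPM, cluster 3 had 502 CPM, cluster 2 had 457 CPM and cluster 1 had 311 CPM. The intervals of clusters 7 and 3, and of 3 and 2, overlapped. In WT, cluster 7 had 334 CPM, cluster 5 had 321 CPM, cluster 2 had 279 CPM, cluster 3 had 250 CPM and cluster 1 had 202 CPM, and each neighbour from 7 to 3 overlapped the next. Cluster 1 was the lowest B lineage cluster in both libraries. Cluster 6 stood above it 10.1-fold in 5XFAD and 11.9-fold in WT, and cluster 4 stood above it 6.44-fold and 6.50-fold.

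Cluster 6 and cluster 4 also had the largest shares of cells with the transcript among the lymphocyte clusters. In cluster 6, 98.2% of 5XFAD cells (94.8 to 99.6) and 92.1% of WT cells (85.5 to 96.3) had 2 or more Apoe UMIs, and the cells with any had medians of 18 and 12. In cluster 4, 90.9% of 5XFAD cells and 75.8% of WT cells had 2 or more, with medians of 11 and 8. In cluster 1 these shares were 31.8% in 5XFAD and 21.7% in WT. Clusters 4 and 6 had the largest medians among the lymphocyte clusters in both libraries.

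Clusters 0 to 5 together had 775 CPM of Apoe in 5XFAD (759 to 790) and 421 CPM in WT (409 to 432), a log2 ratio of 0.88 (0.83 to 0.93). Ranked from the highest ratio, Apoe was gene 125 of 9681 measured in these cells, of which 4.62% were higher by 1.5-fold in 5XFAD and 15% lower. The median log2 ratio of all these genes was -0.12, with 38.1% higher and 61.9% lower. Both more cells with the transcript and more of it per positive cell went with the difference. In 5XFAD 66.5% of cells (64.5 to 68.4) had at least 1 Apoe UMI, against 52.0% of WT cells (50.01 to 53.9). Within those positive cells the level was 1141 CPM in 5XFAD and 777 CPM in WT, a log2 ratio of 0.56.

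The share of cells with 2 or more Apoe UMIs was 51.4% in 5XFAD (49.4 to 53.5) and 33.6% in WT (31.8 to 35.5). With all cells thinned to 3000 UMIs the shares were 42.0% in 5XFAD and 25.4% in WT, where 37 and 84 shallower cells dropped out. In T, ILC and NK clusters 1.85% of 5XFAD cells and 1.91% of WT cells had 2 or more before thinning. As a ratio of shares, the difference was larger for cells with 8 or more Apoe UMIs than for those with 1 or more. Of the 2364 cells of 5XFAD, 433 (18.3%) had 8 or more Apoe UMIs and held 64.4% of the Apoe UMIs of the class. Of the 2538 cells of WT, 195 (7.68%) did and held 46.4%. Cells with none were 33.5% in 5XFAD and 48.0% in WT, while cells with exactly 2 were 214 in each library.

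**Figure D2:**
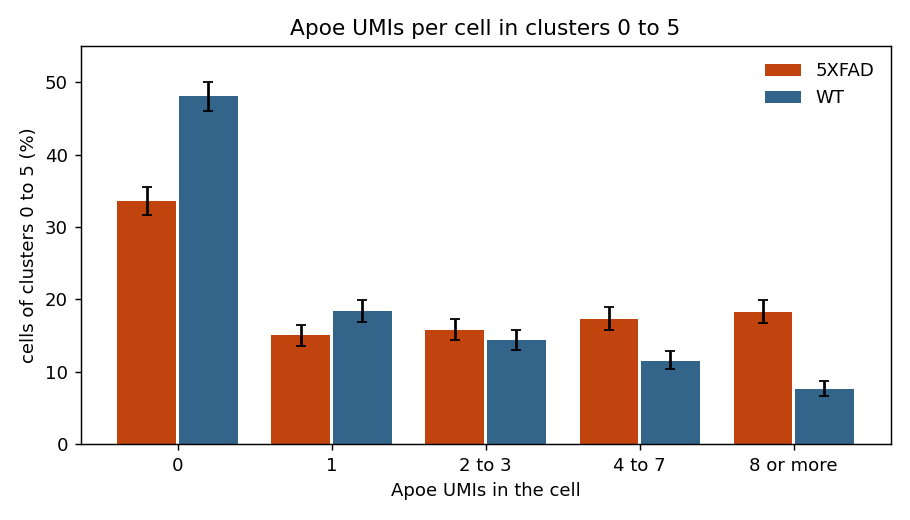
Share of cluster 0 to 5 cells, in percent, by the number of Apoe UMIs in the cell, with 5XFAD left of WT and 95% Clopper-Pearson intervals as bars. WT cells are more often without Apoe (48.0% against 33.5% in 5XFAD), and 5XFAD cells more often have 8 or more UMIs (18.3% against 7.68% in WT).

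Apoe was higher in the 5XFAD library in all 8 of clusters 0 to 7, each with a counting interval above 0, and by at least 1.5-fold in 7 of them. In these clusters between 4.41% and 10.2% of measured genes were higher by 1.5-fold. Cluster 0 had the largest log2 ratio of the 8 at 1.26 (1.17 to 1.35), where 7.79% of 7474 genes were higher by that fold and Apoe ranked 33. Cluster 5 followed at 1.13 (0.95 to 1.32, background 10.2%), and then cluster 3 at 1.003 (0.84 to 1.17, background 6.34%). Cluster 7 had 0.73 (0.49 to 0.98, background 8.22%), cluster 2 had 0.71 (0.56 to 0.87, background 5.87%) and cluster 1 had 0.62 (0.46 to 0.77, background 4.41%). The smallest ratios were 0.60 (0.52 to 0.69, background 6.74%) in cluster 4 and 0.37 (0.29 to 0.46, background 9.04%) in cluster 6, which had the most Apoe of the 8. The ratios did not follow the Apoe level over the 8 clusters. The interval of cluster 4 overlapped that of cluster 1, which had the least Apoe, and cluster 0, next in level after clusters 6 and 4, had the largest ratio.

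The makeup of the class differed between libraries, since cluster 5 had 119 cells in the 5XFAD library and 396 in the WT library. With both libraries set to equal cluster proportions the levels were 764 CPM in 5XFAD and 411 CPM in WT, a log2 ratio of 0.89. Without cluster 0 the log2 ratio was 0.74. Markers of other cells also differed between the libraries. The 17 macrophage and monocyte markers summed to 8.72 CPM in clusters 0 to 5 of 5XFAD, with Adgre1, Cx3cr1, Fcgr1, Mertk and Cd163 at 0, and to 17.04 CPM in WT, with Mertk at 0. The epithelial list summed to 20.8 CPM in 5XFAD and 12.9 CPM in WT, the same direction as Apoe, and the stromal, endothelial and enteric glial list to 45.9 and 87.0 CPM. Immediate early and dissociation genes, which cell handling can induce, were lower in 5XFAD in 18 of 23 members, against 61.9% of all genes. They were lower by 1.5-fold in 13 of 23, against 15% of all genes. Their median log2 ratio was -0.61, beside -0.12 for all genes. Of these 23 members, Jun had -2.54 and Hspa1a -2.69. The part of these markers and genes in the Apoe difference was not tested. Cells with a UMI of the complement genes C1qa, C1qb or C1qc numbered 15 in 5XFAD and 35 in WT of this class. The other cells had 771 CPM of Apoe in 5XFAD and 414 CPM in WT.

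**Figure D3:**
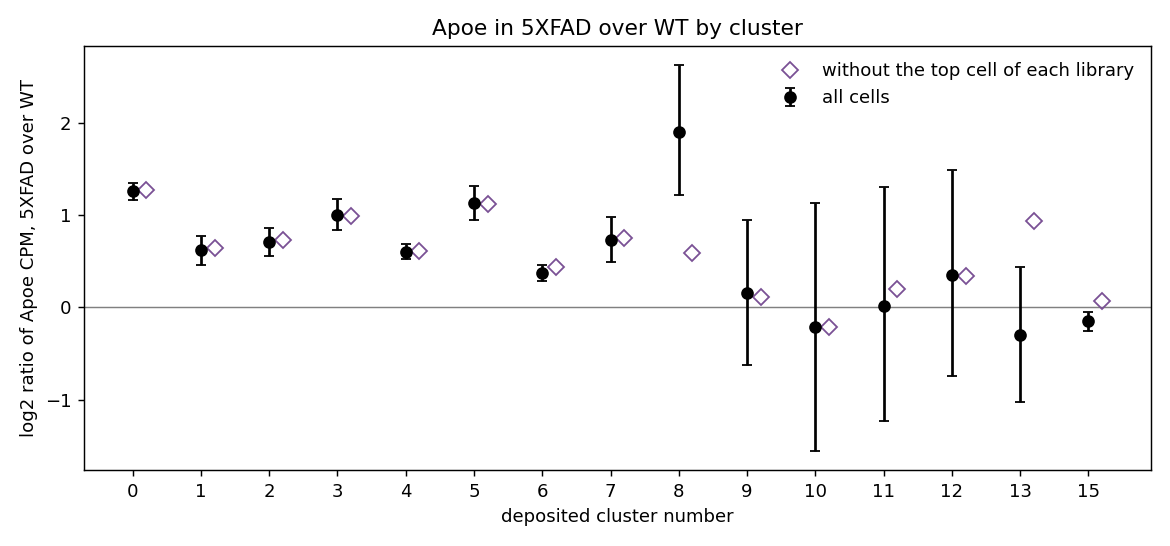
Log2 ratio of the Apoe level, 5XFAD over WT, by deposited cluster, with 95% counting intervals; open diamonds leave out the cell with the most Apoe UMIs in each library. Clusters 14 and 16, with 14 and 5 Apoe UMIs over both libraries, are not drawn. Clusters 0 to 7 lie above 0 either way, while the values of clusters 8, 13 and 15 move when 1 cell of each library is left out.

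In T, ILC and NK clusters Apoe was low, with 49.1 CPM (42.7 to 56.2) in 5XFAD and 35.2 CPM (29.4 to 41.8) in WT. At least 1 Apoe UMI was found in 10.6% of these cells in 5XFAD and 12.7% in WT, at median depths of 5559 and 5766.5 UMIs per cell. The depths of clusters 0 to 5 were 5086.5 and 4783.5. Transcripts abundant in the B lineage clusters were present at a low level too. Relative to clusters 0 to 5, these cells had 6.34% of the Apoe level in 5XFAD and 8.37% in WT. Taken for comparison were 9 transcripts, the 6 B cell markers with Cd74, H2-Aa and Ighm. Of these, 8 lay below Apoe, between 0.622% and 3.23% in 5XFAD and between 2.75% and 5.12% in WT. Ighm, the heavy chain of IgM, lay above Apoe at 8.06% and 12.6%.

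A few cells carried much of this Apoe. Of the 1383 T, ILC and NK cells, 7 had 5 or more Apoe UMIs, 4 in 5XFAD and 3 in WT, and 6 of the 7 also had a UMI of a C1q gene, which only 32 of the 1383 had. They held 120 of the 210 Apoe UMIs of the 5XFAD library in these clusters, against 43 of 129 for WT. Without these 7 the level was 21.2 CPM in 5XFAD and 23.6 CPM in WT, a log2 ratio of -0.16, or 2.73% and 5.61% of the cluster 0 to 5 level.

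Cluster 8, which holds the regulatory T cell markers, shows how 1 cell can set a ratio. Its Apoe level was 153 CPM (123 to 189) in 5XFAD and 41.2 CPM (26.1 to 61.8) in WT, a log2 ratio of 1.90 (1.22 to 2.63), where 8.14% of genes were higher by 1.5-fold. A single 5XFAD cell held 63 of the cluster's 90 Apoe UMIs in that library, or 70.0%, together with 10 C1q UMIs and 9 of Lyz2, a macrophage lysozyme gene. Leaving out the top cell of each library brought the log2 ratio to 0.59. That value still holds a second 5XFAD cell, with 17 Apoe UMIs and 2 C1q UMIs, so it leans on 1 cell too. Cells with 1 or more Apoe UMIs were 9.02% in 5XFAD and 14.9% in WT. In cluster 13, with gamma delta T cell markers, 1 cell of 26 Apoe UMIs in each library did the same, and the log2 ratio of -0.30 (-1.03 to 0.44) was 0.94 without both.

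Among the 8 T, ILC and NK clusters, 6 had intervals that hold 0. Cluster 9, with ILC2 markers, had 44.1 CPM in 5XFAD and 39.7 CPM in WT, and cluster 12, with NK and ILC1 markers, had 34.0 and 26.7 CPM. Clusters 10 and 11, both with T cell markers, had 15.5 and 21.1 CPM in 5XFAD, against 18.0 and 20.9 CPM in WT. Cluster 14 had 4.96 CPM in 5XFAD from 2 UMIs and 30.3 CPM in WT from 12 UMIs, and cluster 16, with ILC3 markers, had 3 and 2 UMIs. From cluster 13 down in 5XFAD and from cluster 8 down in WT, each level overlapped the next.

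Cluster 15 had the highest Apoe level of all, 7006 CPM (6636 to 7392) in 5XFAD and 7777 CPM (7414 to 8154) in WT, which was 2.24-fold and 3.22-fold that of cluster 6. It was uneven. Cells with a C1q UMI, 15 of 32 in 5XFAD and 19 of 37 in WT, held 94.7% and 84.3% of its Apoe UMIs. Their level was 14860 CPM in 5XFAD and 12655 CPM in WT, with medians of 53 and 41 Apoe UMIs per cell, a log2 ratio of 0.23 (0.12 to 0.34). The cells without C1q had 673 CPM in 5XFAD and 2528 CPM in WT, a log2 ratio of -1.91 (-2.31 to -1.53). Over the whole cluster the log2 ratio was -0.15 (-0.25 to -0.05), where 24.0% of measured genes were lower by 1.5-fold. It was 0.07 once the highest cell of either library was dropped.

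Within clusters 0 to 5, cells with 2 or more Apoe UMIs, called Apoe 2+, were then set against cells with none, called Apoe 0, in each library on its own. There were 1216 Apoe 2+ and 793 Apoe 0 cells in 5XFAD, and 853 Apoe 2+ and 1219 Apoe 0 cells in WT. Just inside the limit, 214 cells of either library had exactly 2 Apoe UMIs, and just outside it, 355 cells in 5XFAD and 466 in WT had 1 and entered neither side. Median depths were 5247 and 4839 UMIs in 5XFAD and 4978 and 4610 in WT. Cluster 4 made up 21.3% of Apoe 2+ cells in each library, against 1.77% of Apoe 0 cells in 5XFAD and 2.79% in WT. Those Apoe 0 cells of cluster 4 numbered 14 in 5XFAD and 34 in WT. Values weighted by cluster, and those of cluster 4 alone, lean on these few cells. Cluster 1 made up 16.9% of Apoe 2+ and 41.4% of Apoe 0 cells in 5XFAD, and 11.96% and 22.4% in WT. The contrast therefore mixes a difference between clusters with one inside them, and it is the contrast by which the genes below were chosen.

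Few transcripts separated Apoe 2+ from Apoe 0 cells by 1.5-fold. Of 8036 genes measured in both libraries, 26 were higher by 1.5-fold in Apoe 2+ cells of both (0.324%) and 13 were lower (0.162%). In 5XFAD alone 307 were higher (3.82%) and 146 lower (1.82%), and in WT alone 122 were higher (1.52%) and 163 lower (2.03%). Apart from fold, 26.6% of genes were higher and 32.3% lower in both libraries. None of the 26 or 13 reached 50 CPM in both libraries, so all are low transcripts. When cells were thinned to 3000 UMIs, 4 of the 26 and 4 of the 13 were again past the fold. The 24 genes named next reached 50 CPM and were those whose smaller log2 ratio of the libraries was farthest from 0. Counts of clusters given for them split the same cells by which they were chosen. Such counts describe the spread over clusters and are no separate support, and no like count over all genes stands beside them.

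Plac8, a gene for a small cysteine-rich protein, was the most abundant of the 12 higher genes. It had 1039 CPM in Apoe 2+ and 719 CPM in Apoe 0 cells of 5XFAD, and 928 and 652 CPM in WT. The log2 ratios were 0.53 (0.47 to 0.59) in 5XFAD and 0.51 (0.45 to 0.57) in WT. It was higher in all 6 clusters in both libraries. By Apoe class it was 719 CPM in 5XFAD cells with no Apoe UMI, 853 CPM with 1, 876 CPM with 2 to 3, 1003 CPM with 4 to 7 and 1200 CPM with 8 or more. In WT the same classes had 652, 742, 865, 842 and 1148 CPM.

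Slfn2, a Schlafen family gene that restrains lymphocyte growth, had the largest smaller ratio, with 140 CPM in Apoe 2+ and 84.2 CPM in Apoe 0 cells of 5XFAD and 134 and 90.3 CPM in WT. Its log2 ratios were 0.74 (0.55 to 0.92) and 0.57 (0.40 to 0.75). With Apoe 0 cells weighted to the cluster makeup of Apoe 2+ cells they were 0.19 and 0.23, and it was higher in 8 of 12 pairs of cluster and library. Mzb1, an endoplasmic reticulum chaperone for IgM assembly, had 208 and 135 CPM in 5XFAD and 233 and 183 CPM in WT, log2 ratios of 0.62 (0.48 to 0.77) and 0.35 (0.22 to 0.47). It was higher in 11 of 12 pairs, and 0.53 and 0.17 after weighting.

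The other 9 higher genes have varied roles. Cblb, a ubiquitin ligase that dampens antigen receptor signalling, had log2 ratios of 0.46 in 5XFAD and 0.40 in WT and was higher in 12 of 12 pairs of cluster and library. Fcmr, the Fc receptor for IgM, had 0.47 and 0.34, and Fcrla, an intracellular Fc receptor-like protein of B cells, had 0.58 and 0.36. In cluster 4 alone Fcmr was lower in both libraries, with a smaller ratio of -0.089. Dusp4, a MAP kinase phosphatase, had 0.76 and 0.51 but a smaller ratio of -0.42 in cluster 4 alone. Peli1, a ubiquitin ligase of innate receptor signalling, had 0.37 and 0.50. Bcl2a1d, an anti-apoptotic BCL2 relative, had 0.38 and 0.47, but it has near-identical copies that can share its reads, so its value is uncertain. Ypel3 had 0.55 and 0.41 and was higher in 12 of 12 pairs, Zfp52 had 0.73 and 0.53, and Lrif1 had 0.37 and 0.33.

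Among the 12 lower genes, Myc, the growth and proliferation transcription factor, had 72.4 CPM in Apoe 2+ and 130 CPM in Apoe 0 cells of 5XFAD, and 66.9 and 99.6 CPM in WT. The log2 ratios were -0.85 (-1.03 to -0.66) and -0.57 (-0.78 to -0.37). Weighted by cluster they were -0.12 and -0.36, and Myc was lower in 8 of 12 pairs. Vpreb3, a B lineage gene related to the surrogate light chain, had 150 CPM in Apoe 2+ and 207 CPM in Apoe 0 cells of 5XFAD and 153 and 243 CPM in WT. Its log2 ratios were -0.47 (-0.60 to -0.33) and -0.67 (-0.80 to -0.54), and it was lower in 11 of 12 pairs, with -0.38 and -0.71 after weighting. Ptpn6, the phosphatase SHP-1 that restrains B cell receptor signals, was also lower in 11 of 12 pairs, at -0.41 and -0.46.

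Tnfrsf13c, the receptor for the B cell survival factor BAFF, had log2 ratios of -0.52 in 5XFAD and -0.52 in WT and was lower in 10 of 12 pairs. Emp3, a membrane protein gene, had -0.71 and -0.55 and was lower in 10 of 12. Hilpda, a lipid droplet protein that inhibits lipolysis, had -0.49 and -0.55, and Ccnd2, the gene for cyclin D2, had -0.46 and -0.44. Plk2, a stress-induced kinase, had -0.60 and -0.45, Dusp5, a nuclear ERK phosphatase, had -0.65 and -0.43, and Fbl, the nucleolar methyltransferase fibrillarin, had -0.42 and -0.42. Plk2 was lower in 6 of 12 pairs and Dusp5 in 7 of 12, so their direction varied between clusters. With Apoe 0 cells weighted by cluster several of these ratios shrank. Hilpda had -0.0094 in 5XFAD and -0.24 in WT, Plk2 had -0.03 and -0.14, and Dusp5 had -0.13 and -0.07. Fbl had -0.06 and -0.39, and Ccnd2 had 0.06 and -0.36, so Ccnd2 changed sign in 5XFAD.

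**Figure D4:**
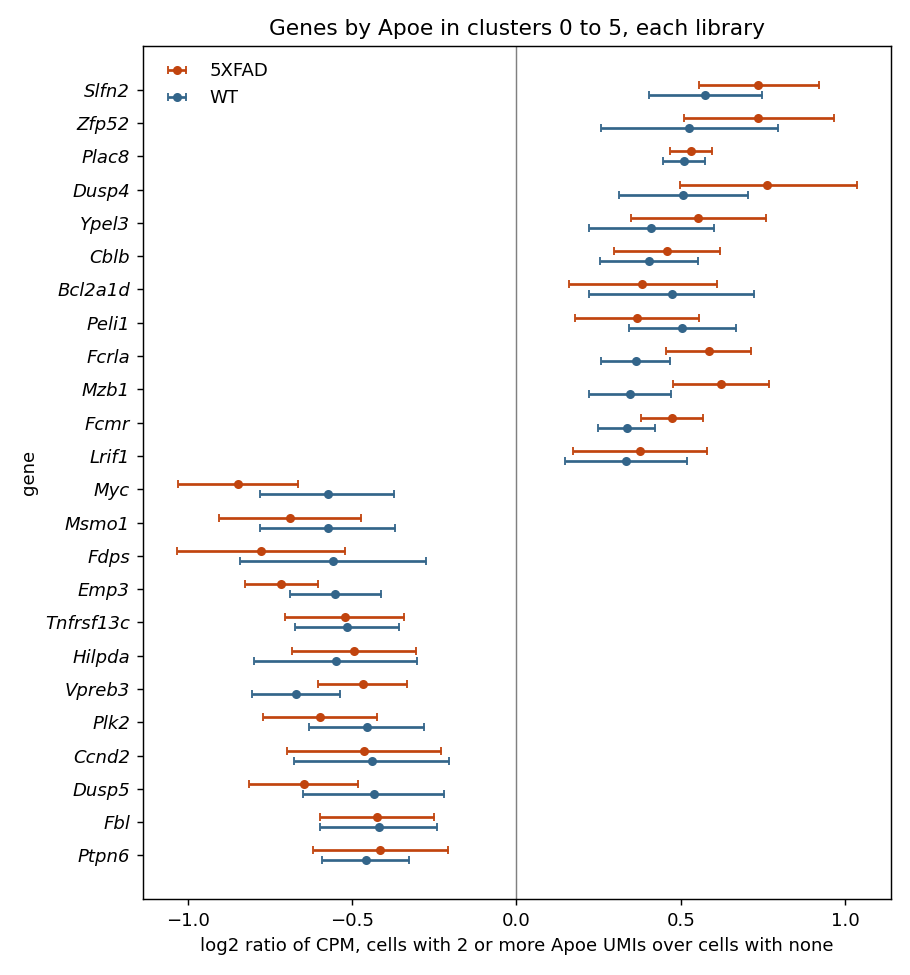
Log2 ratio of CPM in cluster 0 to 5 cells with 2 or more Apoe UMIs over cells with none, for the 12 higher and 12 lower genes named, with 1 point for each library and 95% counting intervals. All 24 lie on the same side of 0 in both libraries, which is how they were chosen.

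The remaining 2 of the 12 lower genes, Msmo1 and Fdps, belong to cholesterol synthesis, and most of that pathway was lower in Apoe 2+ cells. Cells make cholesterol from acetyl-CoA through the mevalonate pathway, and the transcription factor SREBP2 turns the pathway on when membrane sterol is low. Of the 20 listed genes 19 were measured, of which 15 were lower in both libraries, against 32.3% of all genes, 1 was higher in both and 3 differed in sign. The median log2 ratio was -0.44 in 5XFAD and -0.24 in WT, while the medians of all genes were -0.00 and -0.03. This median moved to -0.21 and -0.13 with Apoe 0 cells weighted by cluster, and to -0.42 and -0.37 with every cell thinned to 3000 UMIs.

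Srebf2, which encodes SREBP2, had 123 CPM in Apoe 2+ and 144 CPM in Apoe 0 cells of 5XFAD and 162 and 181 CPM in WT, log2 ratios of -0.22 (-0.38 to -0.06) and -0.16 (-0.30 to -0.03). Idi1, which isomerises the isoprenoid building block, had -0.58 (-0.76 to -0.40) and -0.35 (-0.56 to -0.15). Fdps, which makes farnesyl diphosphate, had 38.3 and 65.6 CPM in 5XFAD and 35.6 and 52.3 CPM in WT, log2 ratios of -0.78 (-1.03 to -0.52) and -0.56 (-0.84 to -0.28).

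Sqle, the enzyme of the first oxygen-dependent step of sterol synthesis, had log2 ratios of -0.47 (-0.86 to -0.09) and -0.46 (-0.81 to -0.11). Msmo1, a sterol demethylation enzyme, had 54.6 and 88.0 CPM in 5XFAD and 66.0 and 98.2 CPM in WT, log2 ratios of -0.69 (-0.91 to -0.47) and -0.57 (-0.78 to -0.37). It was lower in 10 of 12 pairs, and -0.55 and -0.37 after weighting. Nsdhl had -0.49 and -0.48, with intervals that hold 0 in both libraries. Scap, the escort protein of SREBP2, was the 1 gene higher in both, at 0.36 (-0.34 to 1.09) and 0.62 (0.10 to 1.15).

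Summed over the 20 genes, the pathway was lower in cells with more Apoe in both libraries, apart from a like level at 0 and 1 UMI in 5XFAD. In 5XFAD it was 980 CPM in cells with no Apoe UMI (950 to 1012), 988 CPM with 1, 865 CPM with 2 to 3, 757 CPM with 4 to 7 and 627 CPM with 8 or more (596 to 659). In WT it was 1083 CPM with none (1056 to 1110), 1038 CPM with 1, 941 CPM with 2 to 3, 922 CPM with 4 to 7 and 787 CPM with 8 or more (736 to 841). The intervals of the lowest and highest Apoe classes did not overlap in either library. These sums pool clusters 0 to 5 with no weighting by cluster. Cluster 1 made up 41.4% of cells with no Apoe UMI and 16.9% of those with 2 or more in 5XFAD. In WT it made up 22.4% and 11.96%. The part of cluster makeup in these sums was not tested.

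**Figure D5:**
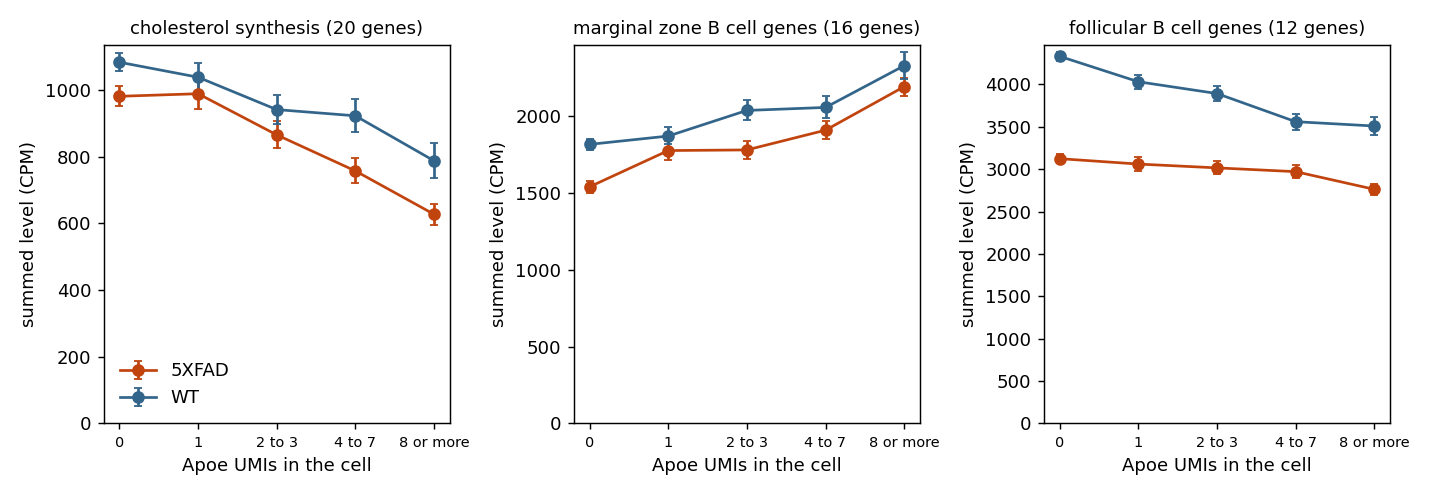
Summed level in CPM of listed gene groups in cluster 0 to 5 cells, by the number of Apoe UMIs in the cell, for 5XFAD and WT, with 95% Poisson intervals. The clusters are pooled with no weighting. Cholesterol synthesis genes go from 980 to 627 CPM over the Apoe classes in 5XFAD and from 1083 to 787 CPM in WT, while marginal zone genes go from 1539 to 2190 CPM and from 1814 to 2326 CPM, where Plac8 alone goes from 719 to 1200 CPM and from 652 to 1148 CPM.

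Receptors of apolipoprotein E were mostly too low to compare. Of the 12 listed 4 were measured, of which 3 were lower and 1 higher in Apoe 2+ cells of both libraries, against 32.3% and 26.6% of all genes. Sdc4, a heparan sulfate proteoglycan that binds the protein, had log2 ratios of -0.26 in 5XFAD and -0.27 in WT. Sorl1, a sorting receptor, had 204 and 207 CPM in 5XFAD and 269 and 271 CPM in WT, with ratios of -0.02 and -0.01.

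The LXR and lipid efflux list, which holds receptor genes such as Nr1h2 and Rxrb beside LXR targets, showed no common direction. Of its 13 measured genes, 2 were higher and 6 lower in Apoe 2+ cells of both libraries, against 26.6% and 32.3% of all genes. The medians were -0.06 in 5XFAD and -0.09 in WT. Abca1, the cholesterol efflux pump, had 109 CPM in Apoe 2+ and 92.5 CPM in Apoe 0 cells of 5XFAD and 95.1 and 78.5 CPM in WT, log2 ratios of 0.23 (0.05 to 0.42) and 0.28 (0.08 to 0.47). Abcg1, its partner, had 0.15 (-0.19 to 0.49) and -0.26 (-0.56 to 0.03). Nr1h2, the gene for LXRβ, had -0.18 and -0.33, Abca7, an Abca1 relative, had -0.35 and -0.21, Srebf1, the fatty acid regulator that LXR induces, had -0.09 and -0.26, and Fasn, the fatty acid synthase, had -0.68 and -0.17. Between genotypes, Abca1 was 99.7 CPM in 5XFAD and 83.6 CPM in WT of clusters 0 to 5, a log2 ratio of 0.26 (0.14 to 0.37). Mylip, an LXR-induced ubiquitin ligase, was 39.1 and 70.2 CPM, a log2 ratio of -0.84 (-1.01 to -0.68).

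Of 8 listed neighbours of Apoe on chromosome 7, 3 were measured. Tomm40, a mitochondrial import pore, had 41.8 CPM in Apoe 2+ and 49.3 CPM in Apoe 0 cells of 5XFAD and 34.0 and 37.3 CPM in WT, log2 ratios of -0.24 and -0.13. Clptm1, a membrane protein gene, had -0.15 and -0.09, and Relb, a subunit of NF-κB, had -0.15 and 0.07. All these intervals hold 0. Between genotypes in clusters 0 to 5, Tomm40 had a log2 ratio of 0.31 (0.13 to 0.49) and Relb one of 0.16 (0.02 to 0.31), on the same side of 0 as Apoe. Clptm1 had -0.52 (-0.74 to -0.30).

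Lists of B cell subset genes are read against all genes, of which 26.6% were higher and 32.3% lower in Apoe 2+ cells of both libraries. Marginal zone genes, of B cells that answer blood-borne antigens, had 13 measured members, 7 higher and 2 lower in both libraries, 1 of them past 1.5-fold. Their medians were 0.17 in 5XFAD and 0.02 in WT, beside -0.00 and -0.03 for all genes. The summed level followed Plac8: the other 15 listed genes summed to 819 CPM in 5XFAD cells with no Apoe UMI and 990.003 CPM with 8 or more, and in WT to 1163 and 1178 CPM. Beside Plac8 and Mzb1, Cd36, a scavenger receptor, had 0.60 (-0.01 to 1.24) and 0.77 (0.15 to 1.39). Cd9, a tetraspanin, had 0.65 (0.01 to 1.32) and 0.15 (-0.70 to 0.99). Both are low transcripts. The marginal zone receptor Cr2, which binds complement, went against these at -0.03 and -0.13, and so did Dph5 at -0.23 (-0.47 to 0.003) and -0.46 (-0.73 to -0.18). Follicular genes had 12 measured members, 0 higher and 7 lower in both libraries, with medians of -0.07 and -0.16. Fcer2a, the low-affinity IgE receptor CD23 of follicular B cells, had 275 CPM in Apoe 2+ and 358 CPM in Apoe 0 cells of 5XFAD and 320 and 422 CPM in WT, log2 ratios of -0.38 (-0.48 to -0.28) and -0.40 (-0.50 to -0.31). Klf2, a factor of quiescence and cell egress, had -0.15 and -0.40.

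The counts of the next lists are read against 26.6% of all genes higher and 32.3% lower in both libraries. The medians of all genes were -0.00 in 5XFAD and -0.03 in WT. Immediate early and dissociation genes had 23 measured members, 1 higher and 11 lower in both libraries and 11 of mixed sign, with medians of -0.06 and -0.23. Egr1, an early growth response factor, had 34.5 CPM in Apoe 2+ and 49.8 CPM in Apoe 0 cells of 5XFAD and 68.7 and 92.0 CPM in WT, log2 ratios of -0.53 and -0.42. Hsp90aa1, a chaperone, had -0.31 and -0.28. Others went opposite ways in the libraries: Hspa1a, a heat shock protein gene, had 1.68 in 5XFAD and -0.77 in WT, Hspa1b had 0.64 and -0.77, and Jun and Fos, subunits of AP-1, had 0.50 and -0.32, and 0.35 and -0.15. Nuclear oxidative phosphorylation genes had 4 of 27 higher and 15 lower, with medians of -0.12 and -0.03. MHC class II presentation genes had 5 of 13 higher and 4 lower, and H2-Ob, which tunes peptide loading, had 0.20 and 0.16. Lysosomal genes had 7 of 17 higher and 2 lower, with Hexa at 0.35 and 0.15. The B-1 cell list had 0 of 5 higher and 4 lower, antibody secretion 3 of 11 and 3, type I interferon response 2 of 11 and 3, memory and age-associated genes 2 of 7 and 1, and germinal centre genes 0 of 4 and 1.

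Markers of other cells were low in both Apoe 2+ and Apoe 0 cells beside those of B cells. The stromal, endothelial and enteric glial list was the highest outside the B lineage, with 48.3 CPM in Apoe 2+ and 46.5 CPM in Apoe 0 cells of 5XFAD and 82.4 and 94.5 CPM in WT. The macrophage and monocyte list summed to 8.38 CPM in Apoe 2+ and 9.30 CPM in Apoe 0 cells of 5XFAD and to 16.2 and 19.1 CPM in WT. The epithelial list summed to 24.1 and 16.6 CPM in 5XFAD and to 14.2 and 14.1 CPM in WT. The T cell list summed to 9.75 and 13.1 CPM in 5XFAD and 8.44 and 9.81 CPM in WT. B cell markers summed to 5128 and 5144 CPM in 5XFAD and 5077 and 5249 CPM in WT. The part of these markers in the ratios was not tested.

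Over the 16 clusters with at least 20 cells in each library, the genes with the pattern most like Apoe were Marcks, Pld4, Plbd1, Fcgr2b, Ctsz, Ifi30, Erp29 and Rapgef5. Likeness is the lower of the libraries' Pearson correlations of log2(CPM + 10), which was 0.93 for Marcks and 0.88 for Rapgef5, among 4042 genes. The clusters of a library share its preparation and depth, and this order leans on cluster 15. Marcks, a membrane-bound kinase substrate, had 844 CPM in cluster 15 and 187 CPM in cluster 6 of 5XFAD, and 1037 and 180 CPM in WT. Fcgr2b, the inhibitory Fc receptor of B cells and macrophages, had 215 and 88 CPM in 5XFAD, and 186 and 100 CPM in WT.

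Without cluster 15, 1 of the 8 remained, and Pold4, a DNA polymerase subunit, led at 0.94, followed by Arhgap24 at 0.92 and Mzb1 at 0.92. In clusters 0 to 7 none of the 8 remained and Mzb1 led at 0.93. Mzb1 had 494 CPM in cluster 6, 286 CPM in cluster 4 and 112 CPM in cluster 1 of 5XFAD, and 617, 294 and 148 CPM in WT, the same order as Apoe. It had 16 CPM in 5XFAD and 9 CPM in WT in cluster 15, where Apoe was highest.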

How the data were processed

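Per the submitters' processing notes, reads were processed with Cell Ranger 6.0.1 and the mm10 genome. The sources used here do not state later filters or clustering settings. The authors deposited natural log values, ln(1 + UMIs per 10000 UMIs of the cell), with a table of UMI counts, detected genes, percent mitochondrial UMIs and cluster per cell. Whole UMIs were recovered from them with the deposited total count: 100% of 11758401 nonzero values were whole within 1e-06. A deposited SCT table, also in natural log values, served as an alternative. AD in the files was taken as 5XFAD, the library that is not WT.

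UMIs were summed per cell group and library and scaled to CPM; for Apoe 2+ and Apoe 0 cells, Apoe was left out of the totals. Levels have exact Poisson intervals, ratios exact conditional binomial intervals and shares Clopper-Pearson intervals, at 95%. Genes needed 50 UMIs. With 1 pooled library for each genotype no test was run, and 1.5-fold is a rule of size. Cells with 1 Apoe UMI were left out of the contrast.

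Named genes were the 12 higher and 12 lower with at least 50 CPM and the largest smaller ratio of both libraries, up to 4 members of each list in the direction of its median, and the 8 most like Apoe. Others (such as Srebf2, Abca1 and Cr2) were named after their values were seen. Immunoglobulin and T cell receptor segments and ribosomal, mitochondrial, Gm, Rik and sex-linked genes were not named. The gene, its groups and the 15 lists were chosen with earlier results of these data known. Some items are not reported here. Calculations were tested on simulated data. Python 3.11.15, NumPy 2.4.6, SciPy 1.17.1, pandas 2.3.3 and matplotlib 3.10.9 were used; promoters come from RefSeq, GRCm38.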

Additional observations from a re-analysis of the deposited data

Results flagged for a closer look

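In cluster 14 and cluster 15 the Apoe ratio of 5XFAD over WT lay on the other side of 0 from that of clusters 0 to 5 (0.88), which is what singled them out; neither difference was tested. Cluster 14 had a log2 ratio of -2.61 (-5.81 to -0.44), from 2 UMIs in 60 cells of 5XFAD and 12 UMIs in 61 cells of WT. Its share of measured genes lower by 1.5-fold was 13%. Cluster 15 had a log2 ratio of -0.15 (-0.25 to -0.05), which was 0.07 without the cell of 178 UMIs in 5XFAD and the cell of 413 UMIs in WT.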

How the results depend on the processing

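The log2 ratio of Apoe in clusters 0 to 5, 0.88 as reported, was 1.01 with median-of-ratios scaling (which shifts the median of all genes, -0.12, to 0), 0.83 without cluster 5 and 0.74 without cluster 0; it stayed positive under every alternative run. Cluster 4 was 0.70 with median-of-ratios scaling, dropping the highest cell of either library gave 0.59 in cluster 8 and 0.94 in cluster 13 and turned cluster 15 to 0.073, and thinning turned cluster 15 to 0.25. The share of cells with 2 or more Apoe UMIs was 42.0% in 5XFAD and 25.4% in WT when thinned; 66.5% and 52.0% had 1 or more, 42.4% and 25.2% had 3 or more, and without cluster 4 it was 46.0% and 29.2%.

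The 26 genes higher in Apoe 2+ cells became 41 when weighted by cluster, 14 without cluster 4, 113 in cluster 4 alone and 80 with 20 UMIs as the minimum. The 13 lower genes became 26 with 3 or more UMIs, 23 when thinned, 25 when weighted, 21 in cluster 4 alone and 49 with 20 UMIs. After thinning 4 of the 26 and 4 of the 13 were shared, and in cluster 0 alone none were, so membership of these sets is not stable. In cluster 4 alone, with only 14 Apoe 0 cells in 5XFAD and 34 in WT, the smaller ratios of Dusp4, Fcmr and Dusp5 were -0.42, -0.089 and 0.73. Lists with medians above that of all genes in both libraries, 3 of 12, became 1 when weighted. Of the 8 genes most like Apoe, 5 remained with a pseudocount of 1 CPM, 0 in clusters 0 to 7 and 1 without cluster 15. Leaving out C1q cells or cluster 0, cluster 0 alone and the likeness without cluster 15 were added after seeing the data. Cluster 16 gave no ratio when thinned.

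With 1 pooled library for each genotype, differences between mice or preparations cannot be told apart from genotype. No paired analysis was possible because each genotype has 1 library.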

Other observations

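Among the 26 and 13 low transcripts past 1.5-fold between Apoe 2+ and Apoe 0 cells of clusters 0 to 5, a few were picked after their values were seen. Emb, which encodes the cell surface protein embigin, had 31.4 CPM in Apoe 2+ and 15.1 CPM in Apoe 0 cells of 5XFAD and 35.8 and 15.1 CPM in WT, log2 ratios of 1.06 and 1.24. Mpeg1, a pore-forming protein gene of macrophages that B cells also transcribe, had 9.00 and 4.27 CPM in 5XFAD and 10.4 and 4.47 CPM in WT, log2 ratios of 1.07 and 1.22. Smpd1, the acid sphingomyelinase gene, had log2 ratios of 0.86 in 5XFAD and 0.91 in WT. On the lower side, Fabp5, a fatty acid binding protein gene, had 8.54 and 23.9 CPM in 5XFAD and 6.001 and 10.5 CPM in WT, log2 ratios of -1.48 and -0.81. Rgs1, a regulator of G protein signalling in B cells, had 14.2 and 21.9 CPM in 5XFAD and 26.2 and 50.2 CPM in WT, log2 ratios of -0.63 and -0.94.

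Between genotypes in clusters 0 to 5, all 5 measured apolipoprotein E receptors and binding partners were lower in 5XFAD, with a median log2 ratio of -0.38 beside -0.12 for all genes, of which 61.9% were lower and 38.1% higher. Sorl1 had 210.04 CPM in 5XFAD and 273 CPM in WT, and Sdc4 had 152 and 193 CPM, log2 ratios of -0.38 and -0.35. All 12 follicular genes were lower too, with a median of -0.42, while 26 of 27 nuclear oxidative phosphorylation genes were higher, with a median of 0.52.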
